A study of Mus musculus with 30 samples.

Results

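SNARE proteins are small membrane-anchored proteins that draw a transport vesicle onto its target membrane and fuse the pair, and their messenger RNAs were followed here through 30 libraries of mouse macrophages. Members were chosen by gene name: the syntaxins (Stx), the vesicle-associated membrane proteins (Vamp), Snap23, Snap25, Snap29, Snap47, Vti1a, Vti1b, Bet1, Bet1l, Gosr1, Gosr2, Sec22a, Sec22b, Sec22c, Ykt6, Use1 and Bnip1. Of 30538 genes in the table, 37 had such a name and 34 of them reached the minimum of 100 counts summed over the libraries. The other 3, among them Snap25 (0 counts) and Stx19 (2 counts), fell below it, while Stx1a, the lowest member kept, held 1674 counts and Vamp5 2081. All 34 members passed the filter on low counts used for testing.

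Bone marrow derived macrophages, cells grown from marrow in culture, came from 3 wild-type C57BL/6 mice and 3 mice lacking Ch25h (Ch25h-/-), the enzyme that makes 25-hydroxycholesterol (25HC). Wild-type cells were left without compound or were pretreated for 18 h with 25HC at 5 µM, itraconazole (an azole antifungal) at 1 µM or OSW-1 (a plant saponin) at 0.3 µM, grouped in the series title as inhibitors of OSBP, a protein that exchanges lipids between the endoplasmic reticulum (ER) and the trans-Golgi. Each of these groups, and Ch25h-/- cells without compound, was harvested either unstimulated or after 18 h with bacterial lipopolysaccharide (LPS) at 10 ng/mL, which made 10 groups of 3 libraries with 1 library per mouse. Unstimulated libraries carry a stimulation time of 0 h, so in every LPS comparison LPS and the 18 h of further culture cannot be told apart. Libraries without compound likewise carry a pretreatment time of 0 h. Where a compound is set against no compound, the compound and any 18 h of further culture cannot be told apart. The labels name no vehicle for the cells without compound, do not say whether the compound stayed on during LPS, and give no detail of the Ch25h allele or of the age of the mice.

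A fusing SNARE complex is a bundle of helices of the classes Qa, Qb, Qc and R, named after the residue that each helix places at the centre of the bundle, and the SNAP-type Qbc proteins carry both a Qb and a Qc helix. Each transport step has its own sets: Stx5 with Gosr2, Bet1 and Sec22b between ER and Golgi, Stx5 with Gosr1, Bet1l and Ykt6 inside the Golgi, Stx18 with Bnip1, Use1 and Sec22b for return to the ER, Stx16 with Vti1a, Stx6 and Vamp4 at the trans-Golgi network, Stx7 with Vti1b, Stx8 and Vamp8 in late endosomes, and Stx4 with Snap23 and Vamp3 at the cell surface. In macrophages these steps carry new cytokines outward and bring lysosomes to phagosomes. By the step for which each is best known, 12 members belong to the ER and early secretory route, 10 to endosomes, trans-Golgi network and lysosomes, and 10 to the cell surface, and 2 (Snap29 and Snap47) act at several steps. Classed by gene family, the members comprise 11 Qa, 5 Qb, 5 Qc, 3 Qbc and 10 R proteins. Sec22a and Sec22c are counted as R by their relation to Sec22b, and whether they carry a SNARE helix was not checked.

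Library totals ran from 23656860 to 43922154 counts. In 20 libraries every count was even (at least 30634780 counts), and the other 10 also held odd counts (at most 29630084): all libraries of OSW-1 with LPS, all of Ch25h-/- and the unstimulated 25HC library of mouse 3. This property and those conditions cannot be told apart. Levels are CPM, read counts brought to a common library total after TMM scaling. Effects are log2 fold changes ± standard error from 1 edgeR quasi-likelihood fit over all libraries, with 3 per group. The mouse was not a term in this fit, and a fit with the mouse as a block is given where it changed a call. A gene was called higher or lower at an adjusted p (Benjamini-Hochberg over 13173 tested genes) under 0.05. Ch25h separated the genotypes, at 2.22, 2.24 and 1.42 CPM in untreated unstimulated wild-type cells and 0.277, 0 and 0.0768 CPM in Ch25h-/- cells. The 9 macrophage markers in the table summed to 16280 to 20630 CPM in untreated unstimulated cells, to 19540 to 30370 CPM with LPS and to 8303 to 10490 CPM with OSW-1 and LPS, where 8 of the 9 were lower and 1 higher than with LPS alone. Endothelial markers (4 in the table) summed to 4.09 to 8.55 CPM without and 21.7 to 30.1 CPM with LPS, 2 of the 3 tested being higher, and B cell markers (5 in the table) to 5.41 to 9.42 CPM with LPS alone and 0.161 to 0.722 CPM with OSW-1 and LPS. Fibroblast markers (5 in the table) summed to 5.41 to 11.3 and 1.27 to 2.29 CPM in the same 2 groups, and to 1.61 to 3.28 CPM in untreated unstimulated wild-type cells. In Ch25h-/- cells they summed to 4.83 to 11.4 CPM without and 12.3 to 23.8 CPM with LPS, above wild-type cells in each state. Of the 4 tested, 0 were called between genotypes in either state. Neutrophil markers (8 in the table) summed to 0.676 to 2.25 CPM with LPS alone and 0.321 to 0.756 CPM with OSW-1 and LPS, 2 of the 3 tested being lower. Dendritic cell markers (5 in the table) went the other way, from 0.360 to 1.09 CPM to 1.04 to 1.96 CPM, with the 1 tested being higher. T cell markers summed to at most 0.154 CPM in any library. B cell markers summed to 0.521 to 1.997 CPM with 25HC and LPS and 0.373 to 1.83 CPM with itraconazole and LPS. Fibroblast markers summed to 2.995 to 4.525 and 2.40 to 4.76 CPM there, and neutrophil markers to 0.133 to 0.208 and 0.745 to 2.29 CPM. In unstimulated wild-type cells B cell markers summed to 8.49 to 11.3 CPM without compound. They summed to 4.32 to 5.505 CPM with 25HC, 4.75 to 5.67 CPM with itraconazole and 4.225 to 4.735 CPM with OSW-1. The part of other cells or of cell loss in the results was not tested, and in bulk libraries fewer cells of a type and less RNA per cell cannot be told apart.

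In untreated unstimulated wild-type cells the members spanned levels of 58.1 ± 3.00 to 0.522 ± 0.138 CPM per kilobase of annotated exon (mean ± SD, n = 3), the scale used for comparing genes with each other. The R-SNAREs Vamp8, of late endosomes, and Vamp3, of recycling endosomes and the cell surface (52.6 ± 0.483), the surface syntaxin Stx4a (51.1 ± 1.01) and the Golgi R-SNARE Ykt6 (49.9 ± 2.89) stood at the top. Stx7 (41.7 ± 1.04), Snap23 (41.3 ± 4.08), Stx12 (38.3 ± 0.776) and Use1 (37.95 ± 3.35) followed. Stx4a and Ykt6, Stx7 and Snap23, Snap23 and Stx12, and Stx12 and Use1 were neighbours in this order that differed by less than the larger of their SDs. At the bottom were Stx1a and Vamp1 (1.31 ± 0.139), both best known from nerve terminals, Vamp5 (1.07 ± 0.179), first described in muscle, and Stx11 (2.06 ± 0.0586), which serves granule release in lymphocytes. Every transport step had its Qa, Qb, Qc and R members detected, from Stx5a (14.4 ± 1.82) and Sec22b (15.3 ± 0.615) of the early route to Stx6 (4.43 ± 0.389) and Vti1a (3.46 ± 0.175) of the trans-Golgi network. The summed level of the 34 genes was 2299 ± 38.1 CPM in untreated unstimulated cells, 2870 ± 221 CPM with LPS and 3183 ± 71.6 CPM with OSW-1 and LPS. These sums depend on the TMM scaling. Of the unscaled counts, the members held 0.254, 0.246 and 0.244% in untreated unstimulated libraries and 0.245, 0.248 and 0.239% with LPS. With OSW-1 and LPS they held 0.326, 0.324 and 0.320%.

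LPS in untreated wild-type cells changed 22 of the 34 members, 19 of them upward, against 60.9% of all genes (30.8% higher, 30.1% lower), and its member median was 0.30 beside -0.01 over all genes. Only Stx11 and Vti1a moved by more than 1 on the log2 scale, where 24.6% of all genes were called and did so. Among unstimulated cells 25HC changed 13 members (10 higher, 3 lower) against 28.7% of all genes (15.9% higher, 12.8% lower), itraconazole 11 (8 higher, 3 lower) against 26.8% of all genes (14.4% higher, 12.4% lower), and OSW-1 15 (11 higher, 4 lower) against 37.3% of all genes (20.1% higher, 17.2% lower). Among LPS-treated cells 25HC changed 19 (11 higher, 8 lower) against 41.8% of all genes (20.8% higher, 21% lower), itraconazole 26 (14 higher, 12 lower) against 54.4% of all genes (26.5% higher, 27.9% lower), and OSW-1 27 (13 higher, 14 lower) against 71.4% of all genes (34.3% higher, 37.1% lower). As shares of the 34 members these are 38.2, 32.4 and 44.1% without LPS and 55.9, 76.5 and 79.4% with it. The 3 compounds were set against the same untreated libraries within each state. The count for unstimulated 25HC rested on single libraries: it was 6 without 25HC mouse 1 and 8 without 25HC mouse 2.

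**Figure D1:**
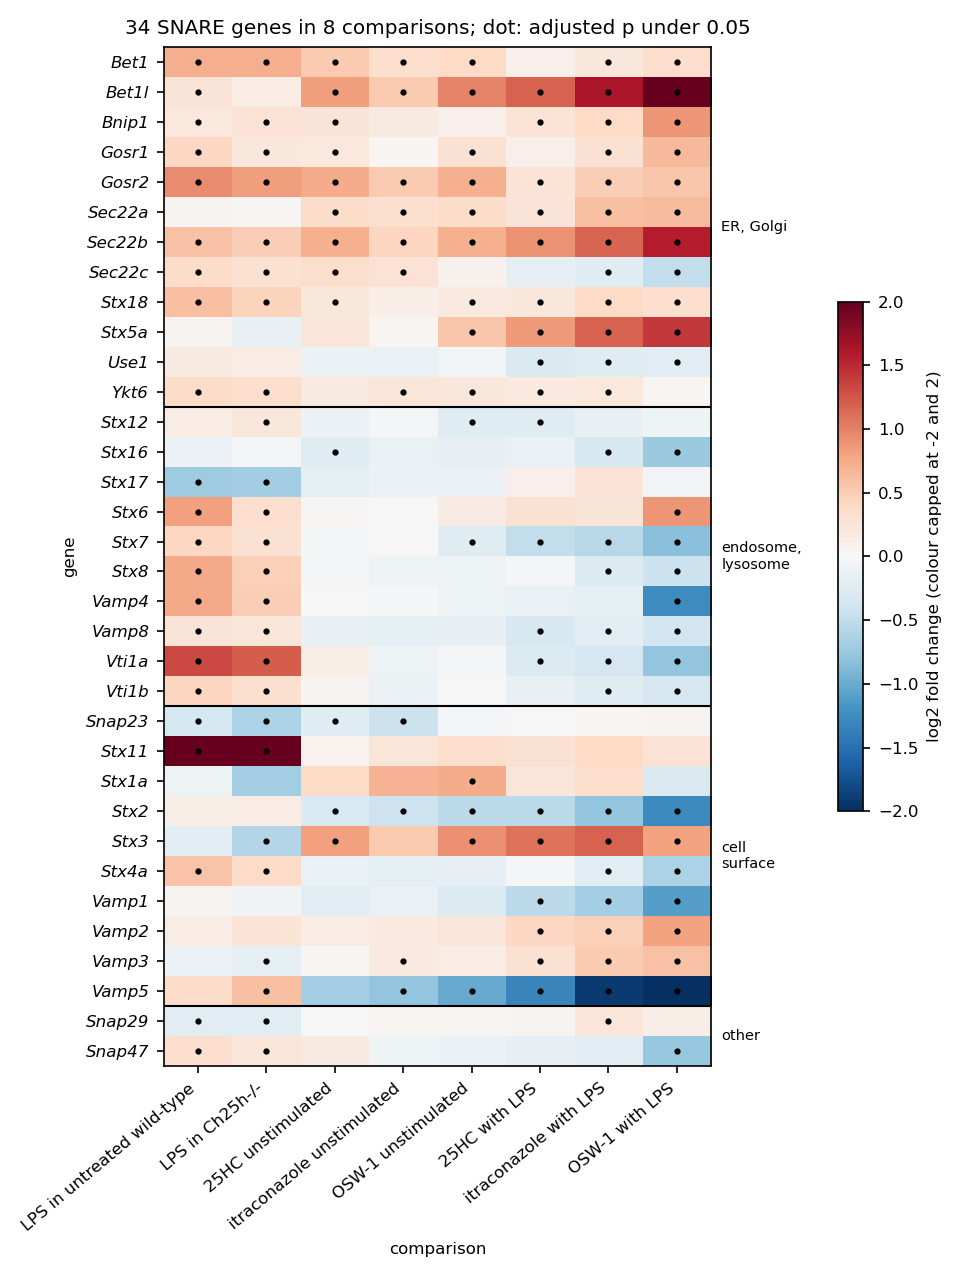
Log2 fold changes of the 34 SNARE genes (rows, grouped by transport step) in 8 comparisons (columns); red is higher and blue lower in the first-named condition, colours are capped at -2 and 2, and dots mark an adjusted p under 0.05. The rows of Bet1l, Sec22b and Stx5a are red under every compound with LPS, and the rows of Vamp5 and Stx2 are blue.

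Most ER and early secretory members were higher with each compound, with the largest estimates for Bet1l, Sec22b and Gosr2 in unstimulated cells and for Bet1l, Stx5a and Sec22b in LPS-treated cells. Of the 12 members of this route, 25HC left 9 higher and 0 lower (median 0.30) in unstimulated cells, itraconazole 7 higher and 0 lower (median 0.26) and OSW-1 9 higher and 0 lower (median 0.33), where the median over all genes was between 0 and 0.01. With LPS the counts were 8 higher and 1 lower (median 0.24) for 25HC, 10 higher and 2 lower (median 0.40) for itraconazole and 9 higher and 2 lower (median 0.60) for OSW-1, and the medians over all genes were -0.01, -0.03 and -0.06. LPS alone left 9 higher and 0 lower (median 0.36) of the 12. Of all genes, 15.9, 14.4 and 20.1% were higher with 25HC, itraconazole and OSW-1 in unstimulated cells. In LPS-treated cells these shares were 20.8, 26.5 and 34.3%, and with LPS alone 30.8%.

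Promoter sequence is shown for Stx5a, Sec22b and Gosr2, which were higher with each compound in LPS-treated cells, and for Vamp5, which was lower there. The stretches come from RefSeq (GRCm38.p6), lie within the 250 bases upstream of the start and leave out annotated exons; each is written 5′ to 3′ on the gene's strand. Capitals mark a CCAAT box in Stx5a, Sec22b and Vamp5 and the full palindrome of the cyclic AMP response element in Gosr2.
Stx5a, chr19:8741226-8741412, plus strand, ending 11 bases before the start: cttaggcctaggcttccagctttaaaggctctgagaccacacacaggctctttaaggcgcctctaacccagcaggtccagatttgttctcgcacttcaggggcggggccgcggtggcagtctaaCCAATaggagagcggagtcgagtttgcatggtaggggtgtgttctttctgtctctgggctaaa
Sec22b, chr3:97901090-97901189, plus strand, ending 37 bases before the start: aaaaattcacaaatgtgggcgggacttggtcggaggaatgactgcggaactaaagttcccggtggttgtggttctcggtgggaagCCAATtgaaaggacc
Gosr2, chr11:103697899-103697973, minus strand, ending 175 bases before the start: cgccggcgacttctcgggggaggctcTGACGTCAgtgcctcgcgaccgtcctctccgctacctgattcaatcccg
Vamp5, chr6:72380469-72380718, minus strand, ending at the base before the start: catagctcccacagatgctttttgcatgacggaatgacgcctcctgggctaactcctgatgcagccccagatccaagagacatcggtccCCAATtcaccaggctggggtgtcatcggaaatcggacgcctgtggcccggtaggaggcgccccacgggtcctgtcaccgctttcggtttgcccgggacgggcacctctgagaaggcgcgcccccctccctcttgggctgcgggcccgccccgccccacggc

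Promoter windows were found for 32 members (39 windows, as some genes have several starts); Vamp2 and Vamp3 had none. Searched on both strands of the 250 upstream bases, CCAAT was present for 15 of the 32 members and 7 of the 12 early secretory ones, in 43.6% of the members' windows and 33.8% of all 32851 windows. The Golgi stress motif ACGTGGC was present for Bnip1 (2.02% of all windows), the cyclic AMP motif TGACGTCA for Gosr2 (1.55%), and the E-box CACGTG, which can overlap ACGTGGC, for Bnip1, Sec22c, Stx6 and Vamp4 (6.02%). The core interferon response element (TTTC repeated after 2 unspecified bases) was present for Gosr2 and Vamp1 (2.98%). For Gosr2 it lay in the window of another start, which is not shown and which also held CCAAT. Neither the unfolded protein response motif TGACGTGG (0.563% of all windows) nor the ER stress element (0.113%), CCAAT and CCACG held apart by 9 unspecified bases, was found in a member's window.

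Bet1l, the Qc-SNARE of transport within the Golgi, stood at 28.7, 26.8 and 30.5 CPM in mouse 1, 2 and 3 of the untreated unstimulated group. It reached 48.8, 51.7 and 53.2 CPM with 25HC, 41.7, 37.8 and 44.6 CPM with itraconazole and 60.4, 55.7 and 55.99 CPM with OSW-1. With LPS alone it stood at 35.8, 35.2 and 31.9 CPM. Every library with a compound lay above every library without one in the same state. LPS with 25HC gave 84.6, 77.2 and 71.2 CPM, LPS with itraconazole 115, 102 and 100.1 CPM and LPS with OSW-1 134, 144 and 131 CPM, so that the OSW-1 libraries held the highest levels of all. The log2 changes were 0.84 ± 0.11, 0.53 ± 0.11 and 1.00 ± 0.11 without LPS (adjusted p = 2.45e-06, 0.00061 and 7.7e-08) and 1.18 ± 0.11, 1.63 ± 0.11 and 1.99 ± 0.11 with it (1.1e-08, 3.61e-11 and 5.1e-14), in the order 25HC, itraconazole, OSW-1. The change under LPS alone, 0.26 ± 0.11, was lost when any of 4 libraries of those groups was left out. Another annotated gene, not analysed here, overlaps Bet1l on the opposite strand, and since the strand setting of the counting is not given their reads cannot be told apart.

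Stx5a, the Qa-SNARE shared by the ER-to-Golgi and intra-Golgi complexes, moved mainly when LPS was present. Its unstimulated levels were 80.8, 75.1 and 95.6 CPM without compound, 93.8, 94.3 and 109.8 CPM with 25HC, 88.9, 79.4 and 90.1 CPM with itraconazole and 125, 121 and 122 CPM with OSW-1, and only OSW-1 (0.55 ± 0.09, adjusted p = 5.65e-05) passed the test. LPS alone gave 90.3, 87.8 and 81.9 CPM and no call (0.05 ± 0.09, adjusted p = 0.677). With LPS and a compound the levels were 163, 165 and 142 CPM for 25HC, 218, 196 and 176 CPM for itraconazole and 227, 231 and 234 CPM for OSW-1, all above the untreated LPS libraries. These are changes of 0.85 ± 0.09, 1.18 ± 0.09 and 1.41 ± 0.10 (adjusted p = 2.15e-07, 5.58e-10 and 2.18e-12). The response difference, which is the LPS effect with the compound minus the LPS effect without it, was 0.61 ± 0.13 for 25HC, 1.14 ± 0.13 for itraconazole and 0.86 ± 0.13 for OSW-1 (adjusted p = 0.00419, 3.25e-06 and 7.72e-06).

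Sec22b, the R-SNARE of ER and intermediate compartment that also reaches phagosomes, rose with LPS and with each compound. Untreated unstimulated libraries held 58.2, 63.05 and 60.8 CPM, and the 25HC, itraconazole and OSW-1 libraries 99.7, 101 and 96.2 CPM, 83.1, 79.6 and 82.2 CPM and 103, 95.7 and 99.5 CPM. LPS alone raised it to 101, 91.8 and 79.3 CPM (0.58 ± 0.10, adjusted p = 1.6e-05). Adding 25HC, itraconazole or OSW-1 to LPS gave 180.3, 178 and 148 CPM, 219, 207 and 181 CPM and 277, 272 and 258 CPM, with no overlap with LPS alone. The changes were 0.71 ± 0.10, 0.43 ± 0.10 and 0.71 ± 0.10 in unstimulated cells (adjusted p = 8.77e-06, 0.00203 and 3.4e-06) and 0.90 ± 0.10, 1.16 ± 0.10 and 1.57 ± 0.10 in LPS-treated cells (1.99e-07, 1.38e-09 and 7.3e-13). The response difference passed the test for itraconazole (0.73 ± 0.14, adjusted p = 0.00048) and OSW-1 (0.86 ± 0.14, adjusted p = 1.46e-05) and not for 25HC (0.19 ± 0.14, adjusted p = 0.394).

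Gosr2, the Qb-SNARE of the ER-to-Golgi complex, was among the members that LPS raised most. It went from 114, 111 and 109 CPM in untreated unstimulated cells to 248, 214 and 182 CPM with LPS (0.95 ± 0.08, adjusted p = 3.15e-10). Without LPS the compounds took it to 184, 193 and 183 CPM (25HC), 159.8, 161 and 162 CPM (itraconazole) and 183, 180.1 and 186 CPM (OSW-1), changes of 0.74 ± 0.08, 0.53 ± 0.08 and 0.72 ± 0.08 (adjusted p = 3.62e-07, 3.61e-05 and 2.13e-07). All 9 of these libraries lay above the 3 untreated ones. With LPS the levels were 279.8, 261 and 238 CPM (25HC), 319, 302 and 283 CPM (itraconazole) and 313, 322 and 314 CPM (OSW-1), where the 25HC libraries overlapped those with LPS alone. The smaller change with 25HC (0.27 ± 0.08, adjusted p = 0.0087) than in unstimulated cells gave a response difference of -0.47 ± 0.11 (adjusted p = 0.00959).

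The values of the remaining partners of Stx5 and of Sec22a follow. Bet1, the Qc-SNARE of the ER-to-Golgi complex, rose with LPS (0.73 ± 0.09) and with 25HC, itraconazole and OSW-1 in unstimulated cells (0.52 ± 0.09, 0.35 ± 0.09 and 0.40 ± 0.09), and then with itraconazole (0.22 ± 0.09) and OSW-1 (0.35 ± 0.09) but not with 25HC (0.10 ± 0.09) in LPS-treated cells. Gosr1, the Qb-SNARE of the intra-Golgi complex, rose with LPS (0.41 ± 0.07), unstimulated 25HC (0.22 ± 0.07) and OSW-1 (0.31 ± 0.07), and, in LPS-treated cells, itraconazole (0.30 ± 0.07) and OSW-1 (0.65 ± 0.07). Ykt6, its R-SNARE partner, rose with LPS (0.36 ± 0.08), unstimulated itraconazole and OSW-1 (0.24 ± 0.08 and 0.23 ± 0.08), and 25HC and itraconazole with LPS (0.20 ± 0.08 and 0.20 ± 0.08), and was at 0.03 ± 0.08 with OSW-1 and LPS. Sec22a, a relative of Sec22b in the ER, rose with all compounds in both states, from 0.26 to 0.64, and its LPS change did not pass (0.05 ± 0.09). Some of these calls did not hold without single libraries. Bet1 with itraconazole and LPS was lost in 4 of 6 fits that left out 1 library, and with DESeq2, median-ratio size factors or no low-count filter. Such fits lost Gosr1 with unstimulated 25HC 4 times, Ykt6 3 or 4 times in each compound comparison named, and Sec22a 3 times with 25HC and LPS and 1 time with unstimulated itraconazole.

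In the ER complex of return transport Stx18 and Bnip1 were higher in several comparisons, and Use1 was lower in LPS-treated cells with each compound. The Qa-SNARE Stx18 rose with LPS (0.60 ± 0.08) and, in LPS-treated cells, with 25HC, itraconazole and OSW-1 (0.22 ± 0.07, 0.39 ± 0.07 and 0.34 ± 0.07). It also rose with unstimulated 25HC (0.22 ± 0.08), a call lost in 4 of 6 fits that left out 1 library. The gain of Stx18 with OSW-1 in unstimulated cells (0.19 ± 0.08) missed the threshold with DESeq2 (adjusted p = 0.0816) and without any one of 5 of the 6 libraries. The Qb-SNARE Bnip1, described here after its values were seen, rose with LPS (0.22 ± 0.09), unstimulated 25HC (0.26 ± 0.09), and 25HC and itraconazole with LPS (0.28 ± 0.09 and 0.40 ± 0.09). The first 3 of these were lost in 4, 3 and 2 such fits. It was at 20.96, 19.1 and 17.7 CPM with LPS and 34.3, 32.2 and 40.5 CPM with OSW-1 and LPS. That is a gain of 0.89 ± 0.09 (adjusted p = 4.25e-09) without overlap, and its response difference was 0.79 ± 0.13. The Qc-SNARE Use1 fell by 0.30 ± 0.10, 0.24 ± 0.10 and 0.23 ± 0.10 in LPS-treated cells with 25HC, itraconazole and OSW-1, and was called in no unstimulated comparison. These calls were lost in 3, 4 and 4 of 6 fits that left out 1 library, and those with itraconazole and OSW-1 also without the low-count filter. Sec22c, another ER relative of Sec22b, rose with LPS (0.36 ± 0.11), 25HC (0.35 ± 0.11) and itraconazole (0.28 ± 0.10) when each acted alone, but fell with itraconazole (-0.25 ± 0.11) and OSW-1 (-0.49 ± 0.11) in LPS-treated cells. The calls for itraconazole were lost in 4 of 6 (unstimulated) and 6 of 6 (with LPS) such fits, without the low-count filter and among even-count libraries. Sec22c with unstimulated itraconazole was also lost with median-ratio size factors. Its response difference was -0.53 ± 0.15, -0.53 ± 0.15 and -0.58 ± 0.15 for 25HC, itraconazole and OSW-1 (adjusted p = 0.0226, 0.0106 and 0.00225), and the first of these missed the threshold among libraries with only even counts (adjusted p = 0.0802).

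**Figure D2:**
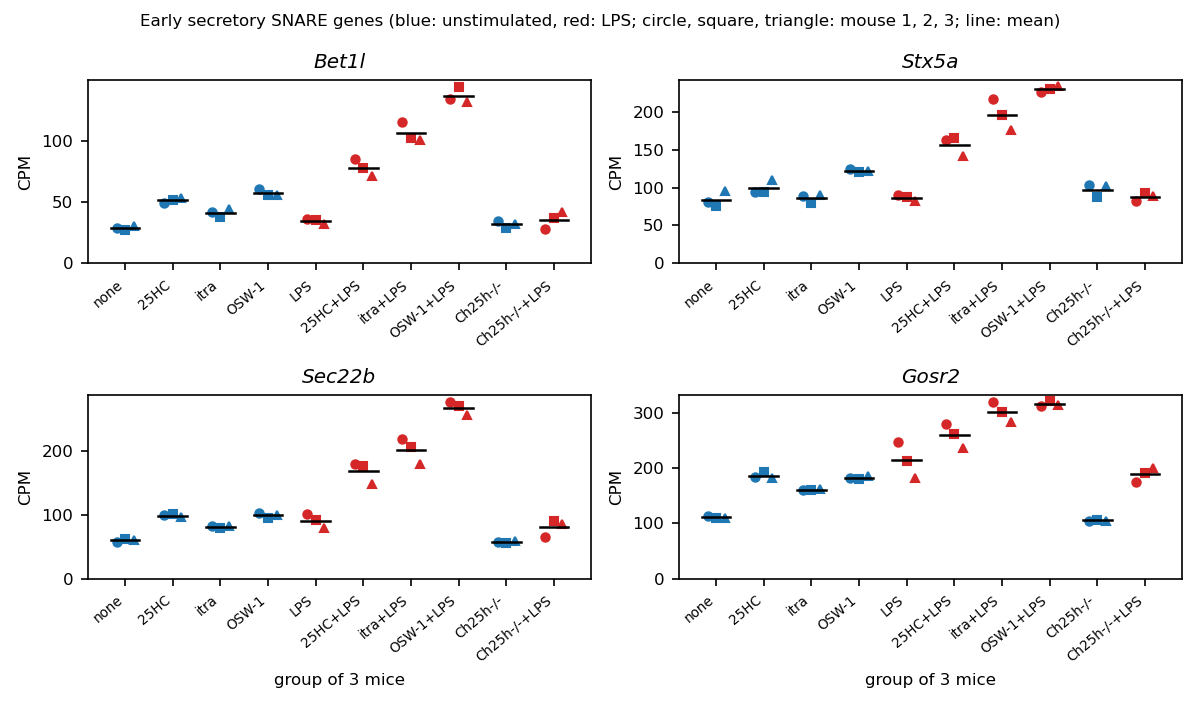
Levels (CPM, linear axis from 0) of Bet1l, Stx5a, Sec22b and Gosr2 in the 10 groups, 1 point per mouse with the group mean as a line; blue is unstimulated and red is LPS. In all 4 panels the 3 points of OSW-1 with LPS lie above the 3 points of LPS alone, reaching 144 CPM for Bet1l against at most 35.8 CPM.

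Most SNAREs of endosomes, trans-Golgi network and lysosomes rose with LPS, and with each compound added to LPS more of them were lower than higher. Of these 10 members LPS left 7 higher and 1 lower (median 0.42) in wild-type cells. In unstimulated cells the compounds called few of them: 0 higher and 1 lower with 25HC, 0 and 0 with itraconazole, and 0 and 2 with OSW-1. In LPS-treated cells 25HC left 0 higher and 4 lower (median -0.14), itraconazole 0 higher and 6 lower (median -0.23) and OSW-1 1 higher and 7 lower (median -0.41). Of all genes, 21, 27.9 and 37.1% were lower there (medians -0.01, -0.03 and -0.06). With LPS alone 30.8% of all genes were higher, and the compounds called 28.7, 26.8 and 37.3% in unstimulated cells.

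Vti1a, the Qb-SNARE of the trans-Golgi network, stood at 44.9, 42.3 and 40.6 CPM in untreated unstimulated cells and 115, 101 and 102 CPM with LPS, a change of 1.31 ± 0.07 (adjusted p = 5.67e-14). Its levels with LPS and 25HC (90.2, 82.9 and 88.9 CPM), itraconazole (87.7, 81.4 and 82.8 CPM) and OSW-1 (57.02, 58.8 and 68.9 CPM) were all below those with LPS alone and above the unstimulated ones. The falls were 0.28 ± 0.07, 0.33 ± 0.07 and 0.78 ± 0.07 (adjusted p = 0.0028, 0.000315 and 4.69e-10). Vti1a was called under no compound in unstimulated cells, and the response difference passed the test for 25HC (-0.39 ± 0.10, adjusted p = 0.0135) and OSW-1 (-0.76 ± 0.10, adjusted p = 9.73e-07). Vamp4, the R-SNARE of the same complex, rose from 55.2, 54.97 and 57.96 CPM to 109.6, 100.1 and 75.98 CPM with LPS (0.76 ± 0.11, adjusted p = 1.24e-06). It was at 94.8, 85.7 and 80.3 CPM with 25HC and 82.5, 81.5 and 85.95 CPM with itraconazole, neither called, and at 35.5, 37.1 and 46.7 CPM with OSW-1 and LPS. The OSW-1 libraries lay below every other library of Vamp4, also the unstimulated ones, with a change of -1.26 ± 0.11 (adjusted p = 2.2e-10) and a response difference of -1.16 ± 0.15 (adjusted p = 1e-06).

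The other Q-SNAREs of that complex went separate ways. Stx6, its Qc member, rose from 48.3, 42.5 and 50.5 CPM to 102, 81.1 and 67.4 CPM with LPS (0.83 ± 0.13, adjusted p = 5.54e-06). With OSW-1 and LPS it rose further, to 154, 151 and 157 CPM (0.88 ± 0.13, adjusted p = 1.19e-06), above every library of the other groups, and its response difference was 0.72 ± 0.18 (adjusted p = 0.00174). With 25HC (109, 106 and 94.6 CPM) or itraconazole (113, 102 and 83.4 CPM) and LPS it overlapped LPS alone. The Qa-SNARE Stx16 was not called with LPS (-0.12 ± 0.09) and fell by 0.25 ± 0.09 with unstimulated 25HC, by 0.32 ± 0.09 with itraconazole and LPS and by 0.74 ± 0.09 with OSW-1 and LPS, the first 2 with overlapping libraries and the first lost without any one of 4 of its 6 libraries.

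Of the late endosomal complex, Stx7, its Qa-SNARE, stood at 192, 186 and 182 CPM in untreated unstimulated cells and 269, 251 and 229.9 CPM with LPS (0.42 ± 0.08, adjusted p = 8.04e-05). Compound and LPS together gave 181, 184 and 167 CPM for 25HC, 168, 167 and 176 CPM for itraconazole and 129.8, 130.5 and 162 CPM for OSW-1, below LPS alone in every library. The falls against LPS alone were 0.49 ± 0.08, 0.55 ± 0.08 and 0.83 ± 0.08 (adjusted p = 3.83e-05, 4.1e-06 and 1.88e-09), and the response difference was -0.46 ± 0.11, -0.56 ± 0.11 and -0.59 ± 0.11 (adjusted p = 0.0103, 0.00093 and 0.000138). Stx8, the Qc-SNARE, rose with LPS (0.76 ± 0.12) and fell with itraconazole (by 0.27 ± 0.11) and OSW-1 (by 0.43 ± 0.12) in LPS-treated cells. Vamp8, the R-SNARE, rose with LPS by 0.25 ± 0.08 and fell by 0.33 ± 0.08, 0.21 ± 0.08 and 0.39 ± 0.08 under 25HC, itraconazole and OSW-1 with LPS. The itraconazole calls of Stx8 and Vamp8 were lost in 5 and 5 of 6 fits that left out 1 library. Vti1b, the Qb-SNARE, rose with LPS (0.43 ± 0.07) and fell with itraconazole (by 0.24 ± 0.07) and OSW-1 (by 0.33 ± 0.07) and LPS. Arg2, an arginase on the opposite strand over part of Vti1b, rose by 6.40 ± 0.44 with LPS and by 1.00 ± 0.28 with OSW-1 and LPS, and its reads cannot be told apart from those of Vti1b there.

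Stx12, a Qa-SNARE of recycling endosomes, was not called with LPS in wild-type cells (0.15 ± 0.07) and fell by 0.24 ± 0.07 with unstimulated OSW-1 and by 0.25 ± 0.07 with 25HC and LPS. Stx17, the Qa-SNARE of autophagosomes, was the one endosomal member that LPS lowered, from 35.6, 36.9 and 41 CPM to 19.5, 22.1 and 27.6 CPM without overlap, a fall of 0.71 ± 0.12 (adjusted p = 1.29e-05). Stx17 was called under no compound in either state, with changes of -0.18 (unstimulated 25HC) to 0.27 (itraconazole with LPS), and the latter passed once the mouse was a block in the fit (0.27 ± 0.09, adjusted p = 0.0111).

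The cell surface SNAREs moved in both directions: Stx11 rose with LPS, and in LPS-treated cells Stx3, Vamp2 and Vamp3 rose with each compound while Vamp5, Stx2 and Vamp1 fell. Of these 10 members LPS left 2 higher and 1 lower (median 0.08), beside 60.9% of all genes called. For 25HC, itraconazole and OSW-1 that share was 28.7, 26.8 and 37.3% in unstimulated and 41.8, 54.4 and 71.4% in LPS-treated cells. The compounds left 1 higher and 2 lower (median -0.05), 1 higher and 3 lower (median 0.04) and 2 higher and 2 lower (median 0.05) in unstimulated cells and 3 higher and 3 lower (median 0.12), 3 higher and 4 lower (median 0.19) and 3 higher and 4 lower (median -0.12) in LPS-treated cells, in the order 25HC, itraconazole, OSW-1.

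Stx11, a lipid-anchored syntaxin needed for killing by lymphocytes, had the largest LPS change of the members. It went from 8.84, 8.39 and 8.79 CPM to 58.6, 47.9 and 31.8 CPM with LPS in wild-type cells, where mouse 3 was lowest, and from 7.53, 7.10 and 5.42 to 27.7, 31.2 and 31.1 CPM in Ch25h-/- cells. The changes were 2.41 ± 0.20 (adjusted p = 1.59e-10) and 2.17 ± 0.21 (adjusted p = 2.17e-09). Compounds with LPS gave 65.4, 55.97 and 49.9 CPM (25HC), 69.5, 70.1 and 42.9 CPM (itraconazole) and 57.6, 56.7 and 54.4 CPM (OSW-1), and none was called against LPS alone. With the mouse as a block, itraconazole with LPS passed (0.41 ± 0.16, adjusted p = 0.0367).

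Stx3, a surface and granule syntaxin, was at 56.99, 53.1 and 43.4 CPM in untreated unstimulated cells. With 25HC it was at 97.9, 93.8 and 79.7 CPM, with itraconazole at 86.2, 70.4 and 65.2 CPM and with OSW-1 at 112, 97.2 and 80.1 CPM, above the untreated libraries in each case. The gain passed for 25HC (0.82 ± 0.25, adjusted p = 0.014) and OSW-1 (0.92 ± 0.25, adjusted p = 0.00482), the first lost without 25HC mouse 1 or untreated mouse 3, and for itraconazole (0.53 ± 0.25, adjusted p = 0.114) only with the mouse as a block (0.53 ± 0.14, adjusted p = 0.00679). LPS alone gave 54.8, 49.7 and 26.4 CPM, and LPS with 25HC, itraconazole and OSW-1 102, 104 and 71.02, 144, 95.95 and 57.2 and 89.4, 76.5 and 61.8 CPM. Mouse 3 was the lowest of its group in each of these groups, and no library with a compound fell as low as the highest without one. The gains with LPS were 1.08 ± 0.25, 1.18 ± 0.25 and 0.80 ± 0.25 (adjusted p = 0.0012, 0.000297 and 0.00588), the last of which missed the threshold without LPS mouse 3 (adjusted p = 0.0525).

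Vamp5, an R-SNARE of the plasma membrane, had the largest fall. Its levels were low throughout, at 2.60, 2.66 and 3.47 CPM in untreated unstimulated cells and 3.63, 3.54 and 4.07 CPM with LPS. In unstimulated cells 25HC, itraconazole and OSW-1 gave 1.62, 1.29 and 2.55 CPM, 1.80, 1.51 and 1.71 CPM and 1.52, 1.17 and 1.62 CPM. All were below the untreated libraries, and the falls with itraconazole (0.79 ± 0.26, adjusted p = 0.0247) and OSW-1 (1.01 ± 0.26, adjusted p = 0.00347) passed the test, the first not when any of 4 of its 6 libraries was left out. The 25HC change (-0.68 ± 0.26, adjusted p = 0.0503) passed with the mouse as a block (-0.69 ± 0.26, adjusted p = 0.0498). With LPS the levels were 1.72, 1.51 and 1.26 CPM (25HC), 0.559, 1.38 and 1.03 CPM (itraconazole) and 0.441, 0.374 and 0.206 CPM (OSW-1), the last from 11, 10 and 6 counts against 118, 118 and 134 counts with LPS alone. These are falls of 1.32 ± 0.26, 1.91 ± 0.27 and 3.46 ± 0.32 (adjusted p = 0.000314, 2.64e-06 and 6.21e-10), and the response difference passed for itraconazole (-1.12 ± 0.37) and OSW-1 (-2.45 ± 0.42). The Vamp5 promoter stretch held CCAAT, as did those of Stx5a and Sec22b and the window of Gosr2 that is not shown.

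Stx2, a syntaxin of the plasma membrane singled out after its values were seen, fell with every compound in both states. It stood at 170.5, 145 and 137 CPM in untreated unstimulated cells and 178, 166 and 145 CPM with LPS, and at 69.7, 67.6 and 65.96 CPM with OSW-1 and LPS, the lowest group. The falls were 0.31 ± 0.09, 0.42 ± 0.09 and 0.52 ± 0.09 in unstimulated cells and 0.53 ± 0.09, 0.80 ± 0.09 and 1.27 ± 0.09 in LPS-treated cells for 25HC, itraconazole and OSW-1, with no overlap in any of the 6 comparisons. The first of these missed the threshold when 25HC mouse 1 (adjusted p = 0.055) or untreated mouse 1 (adjusted p = 0.0937) was left out. Vamp1, a synaptic-type R-SNARE, was called only in LPS-treated cells, with falls of 0.52 ± 0.12, 0.68 ± 0.12 and 1.10 ± 0.13. Tapbpl, on the opposite strand over part of Vamp1, rose by 1.45 ± 0.13 with LPS and was at 0.23 ± 0.13 with OSW-1 and LPS, and reads of the overlap cannot be told apart.

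The set that acts at the surface with Stx4 was divided. Stx4a, its Qa-SNARE, rose with LPS (0.58 ± 0.09) and fell by 0.63 ± 0.09 with OSW-1 and LPS and by 0.22 ± 0.09 with itraconazole and LPS, the latter not passing with the mouse as a block (-0.22 ± 0.09, adjusted p = 0.055). Snap23, the Qbc-SNARE of the surface, went from 180.4, 158 and 193 CPM to 149, 139 and 126 CPM with LPS, a fall of 0.36 ± 0.09 (adjusted p = 0.00131) without overlap. Unstimulated itraconazole libraries (137, 132 and 125 CPM) were also below the untreated ones (fall of 0.43 ± 0.09, adjusted p = 0.000896). With 25HC (146, 139 and 165 CPM) the libraries overlapped, and the fall of 0.24 ± 0.09 was lost without any one of 4 of the 6 libraries compared. Snap23 was called under no compound in LPS-treated cells (highest 0.05). Vamp3, the R-SNARE that brings cytokine-laden endosomes to the surface, rose by 0.31 ± 0.06, 0.52 ± 0.06 and 0.59 ± 0.06 under 25HC, itraconazole and OSW-1 with LPS, and by 0.20 ± 0.06 under itraconazole alone. Its response difference was 0.27 ± 0.08, 0.32 ± 0.08 and 0.45 ± 0.08, and the first of these was lost in 9 of 12 fits that left out 1 library, without the low-count filter and among even-count libraries. Camta1, which overlaps Vamp3 on the same strand, was lower with itraconazole and LPS (-0.78 ± 0.18) and with OSW-1 and LPS (-0.88 ± 0.19).

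Vamp2, a close relative of Vamp3, rose by 0.42 ± 0.15, 0.47 ± 0.15 and 0.81 ± 0.15 under the same 3 compounds with LPS, the first lost in 3 of 6 fits that left out 1 library, and was called under no compound in unstimulated cells. Stx1a, the member with the fewest counts, stood at 1.04, 1.77 and 1.36 CPM in untreated unstimulated cells and 3.14, 1.90 and 1.91 CPM with OSW-1, where mouse 1 was highest. The change of 0.74 ± 0.29 (adjusted p = 0.0465) did not pass with the mouse as a block (0.75 ± 0.31, adjusted p = 0.0539), and without OSW-1 mouse 1 it was 0.46 (adjusted p = 0.296). Of the members that act at several steps, Snap29, a Qbc-SNARE of autophagosome fusion, fell with LPS by 0.21 ± 0.06 and rose by 0.25 ± 0.06 with itraconazole and LPS. Snap47 rose with LPS (0.34 ± 0.10, overlapping libraries) and fell by 0.76 ± 0.11 with OSW-1 and LPS. Pi4ka, opposite Snap29, was lower with LPS (-0.19 ± 0.08) and with itraconazole and LPS (-0.27 ± 0.08). Jmjd4, opposite Snap47, was higher with itraconazole and LPS (0.39 ± 0.14), and Nsg1, opposite Stx18, was lower with LPS (-2.72 ± 0.78). The same limit on strand holds for these.

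**Figure D3:**
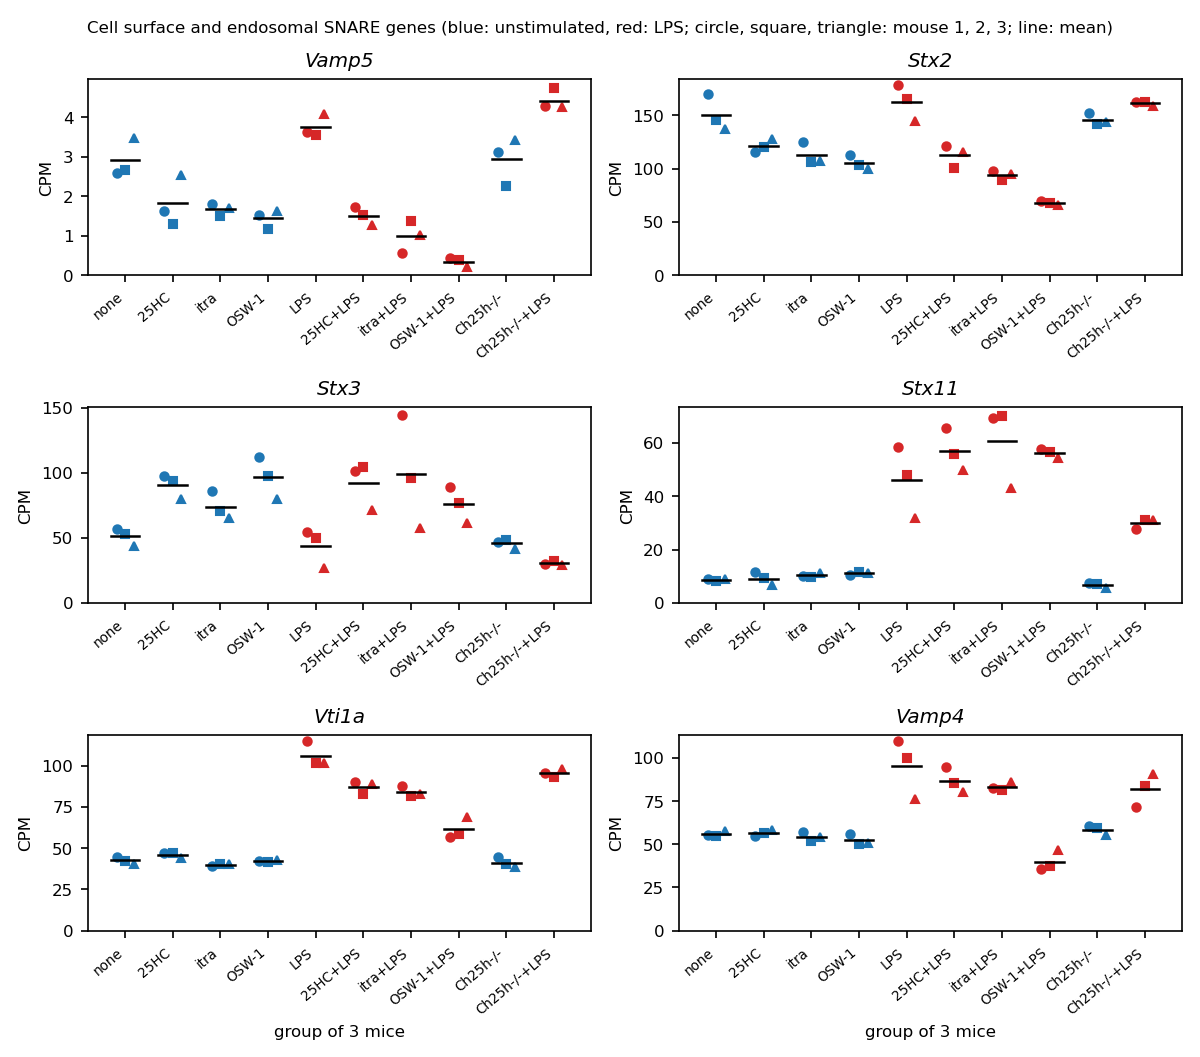
Levels (CPM, linear axis from 0) of Vamp5, Stx2, Stx3, Stx11, Vti1a and Vamp4 in the 10 groups, 1 point per mouse with the group mean as a line; blue is unstimulated and red is LPS. Vamp5 and Stx2 are lowest with OSW-1 and LPS, where Vamp5 lies at or below 0.441 CPM, and Stx11 and Vti1a are higher in all LPS groups than in unstimulated ones.

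The response difference was tested for every member. For 25HC 7 members were called (2 higher, 5 lower) against 12.3% of all genes (5.34% higher, 6.95% lower), for itraconazole 11 (6 higher, 5 lower) against 26.3% of all genes (12.2% higher, 14.2% lower), and for OSW-1 20 (8 higher, 12 lower) against 51.7% of all genes (23.4% higher, 28.3% lower). As shares of the members these are 20.6, 32.4 and 58.8%. Those above 0 included Bet1l for itraconazole (1.10 ± 0.15, adjusted p = 1.69e-05) and OSW-1 (0.99 ± 0.15, adjusted p = 6.01e-06), beside 0.34 ± 0.15 for 25HC (adjusted p = 0.13). Snap23 stood at 0.46 ± 0.13 for itraconazole, where it was lower in unstimulated cells and not called with LPS. The 25HC count was 4 without 25HC LPS mouse 2. With the mouse as a block itraconazole gained Stx3 (0.63 ± 0.20, adjusted p = 0.021), Stx17 (0.38 ± 0.12, adjusted p = 0.0207), Stx18 (0.26 ± 0.10, adjusted p = 0.0498) and Snap29 (0.21 ± 0.08, adjusted p = 0.0476), and OSW-1 lost Stx1a (-1.02 ± 0.45, adjusted p = 0.0634).

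**Figure D4:**
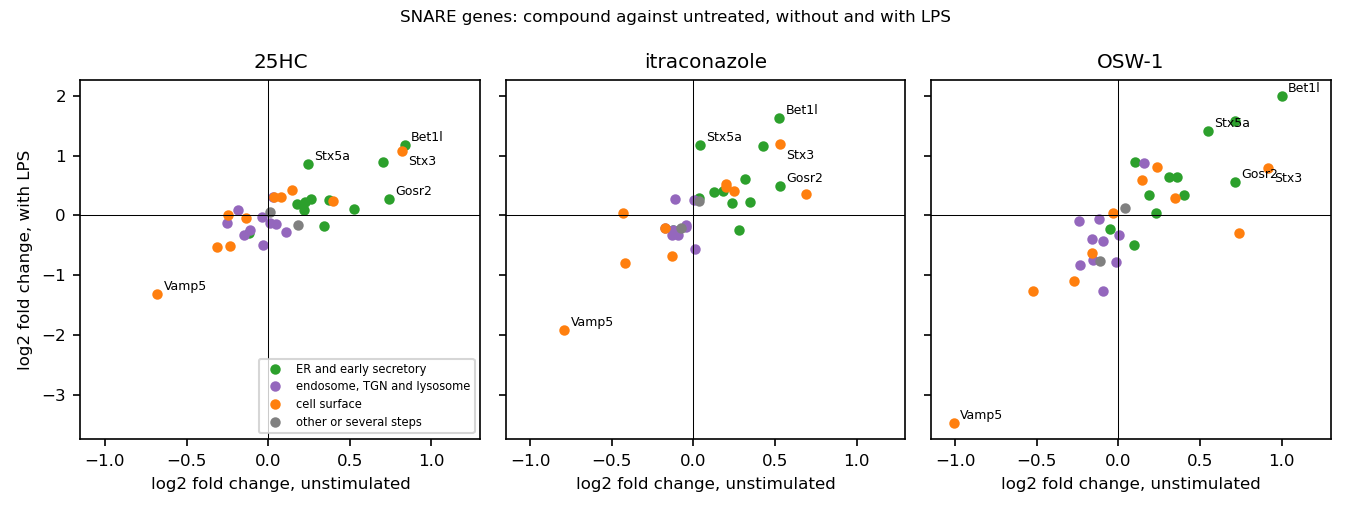
Log2 fold change of each of the 34 members for compound against untreated, in unstimulated cells (horizontal) and in LPS-treated cells (vertical), with 1 panel per compound, 1 point per gene and colours for the transport step. Bet1l lies farthest up in each panel and Vamp5 farthest down, and in the OSW-1 panel the endosomal points lie below 0 on the vertical axis except Stx6.

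The members were also measured in cells that cannot make 25HC through Ch25h. LPS in Ch25h-/- cells changed 25 members (20 higher, 5 lower) against 57.2% of all genes (28% higher, 29.2% lower), among them Vti1a (1.22 ± 0.07), Gosr2 (0.84 ± 0.08), Bet1 (0.72 ± 0.09) and Stx6 (0.34 ± 0.13). By route these were 8 higher and 0 lower (median 0.30) of the 12 early secretory, 8 higher and 1 lower (median 0.31) of the 10 endosomal and 3 higher and 3 lower (median 0.04) of the 10 surface members. Stx3 fell by 0.59 ± 0.25 and Vamp5 rose by 0.60 ± 0.26 in Ch25h-/- cells (adjusted p = 0.0492 and 0.0499), and these calls were lost when any one of 6 (Stx3) or of 5 (Vamp5) libraries was left out. The LPS call of Stx6 in Ch25h-/- cells was lost in 3 such fits. No member was called different between Ch25h-/- and wild-type cells by the edgeR test, against 0.00759% of all genes in unstimulated and 0.228% in LPS-treated cells. At an unadjusted p under 0.05 there were 6 and 9 members, and DESeq2 called 0 in both states. The differences lay between -0.38 and 0.45 without LPS and between -0.62 and 0.47 with it, and their 95% intervals had a median half-width of 0.19 in each state. The widest was that of Stx1a, -0.17 to 1.06 and -0.78 to 0.52. Leaving out wild-type LPS mouse 3, the library with the lowest Stx11, Stx6 and Vamp4 of its group, turned the LPS count from 0 to 11 members (3 higher, 8 lower). The share of all genes called without this library was not recorded, so the shift cannot be read as particular to the members. The LPS response itself was called different between genotypes for no member (0% of all genes called, 2 members at an unadjusted p under 0.05, 0 with DESeq2), and for 1 member without that library.

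The compounds were used at different doses, so differences between them are between these treatments and not between molecules at a matched dose. Of the 6 comparisons made, adjusted over all genes within each, 2 gave no member in unstimulated cells: 25HC against itraconazole (0.235% of all genes called, 10 members at an unadjusted p under 0.05) and 25HC against OSW-1 (2.83%, 6 members). DESeq2 called 1 in each, Vamp3 and Stx5a, both lower with 25HC. The 95% intervals reached from -0.88 to 0.79 and from -0.93 to 0.88. OSW-1 exceeded itraconazole for 4 members (beside 6.33% of all genes, 3.58% higher and 2.75% lower): Stx5a (0.51 ± 0.09), Bet1l (0.47 ± 0.10), Snap23 (0.40 ± 0.09) and Gosr1 (0.27 ± 0.07), and this count fell to 1 without OSW-1 mouse 1 and to 2 without itraconazole mouse 2. Sec22b passed too with the mouse as a block (0.28 ± 0.08, adjusted p = 0.0356). In LPS-treated cells 25HC was below itraconazole for 5 members (beside 6.54% of all genes, 2.8% higher and 3.73% lower): Bet1l (-0.45 ± 0.10), Sec22a (-0.35 ± 0.09), Stx5a (-0.33 ± 0.09), Vamp3 (-0.21 ± 0.06) and Snap29 (-0.19 ± 0.06). That count ranged from 0 to 5 when single libraries were left out, with 0 without itraconazole LPS mouse 1, 1 without itraconazole mouse 2 or 25HC mouse 1, and 2 without 25HC mouse 3. With the mouse as a block Stx2 passed as well (0.26 ± 0.08, adjusted p = 0.0343), as did Sec22c for OSW-1 against itraconazole with LPS (-0.24 ± 0.09, adjusted p = 0.032).

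More members, and more of all genes, separated OSW-1 with LPS from the other 2 compounds with LPS than separated those 2 from each other. All libraries of OSW-1 with LPS held odd counts, unlike those compared with them, so that property and the treatment cannot be told apart. Against 25HC, 23 members or 67.6% differed (11 higher and 12 lower in OSW-1) beside 58.7% of all genes (28.3% and 30.4%). Against itraconazole, 16 members or 47.1% differed (6 higher and 10 lower in OSW-1) beside 48.6% of all genes (23.1% and 25.5%). Vamp4 differed by 1.13 ± 0.11 for 25HC over OSW-1 and -1.07 ± 0.11 for OSW-1 over itraconazole, with Vamp5 (2.14 ± 0.33 and -1.55 ± 0.34), Vti1a (0.50 ± 0.07 and -0.45 ± 0.07), Stx6 (-0.58 ± 0.13 and 0.63 ± 0.13) and Bnip1 (-0.61 ± 0.09 and 0.48 ± 0.09) beside it. Summed macrophage markers were 8303 to 10490 CPM in the OSW-1 libraries, 15370 to 20200 CPM with 25HC and 16530 to 28920 CPM with itraconazole, and their part in these differences was not tested.

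SNAREs act with Sec1/Munc18 (SM) proteins that clasp the assembling bundle, with tethers that catch the vesicle, and with Nsf and its adaptors, which take spent complexes apart. Of 64 such genes on lists, 53 were tested. LPS left 23 higher and 14 lower of them (median 0.02), 25HC 10 higher and 7 lower, itraconazole 6 higher and 11 lower and OSW-1 11 higher and 11 lower in unstimulated cells, and 25HC 15 higher and 10 lower, itraconazole 17 higher and 13 lower and OSW-1 24 higher and 24 lower in LPS-treated cells, beside 60.9, 28.7, 26.8, 37.3, 41.8, 54.4 and 71.4% of all genes called. Scfd1, the SM protein of Stx5, rose with LPS (0.65 ± 0.09), with 25HC, itraconazole and OSW-1 in unstimulated cells (0.72 ± 0.09, 0.47 ± 0.09 and 0.72 ± 0.09) and with the same compounds in LPS-treated cells (0.43 ± 0.09, 0.78 ± 0.09 and 1.23 ± 0.09). Vps33a, the SM protein of the late endosomal tether HOPS, was lower in each of these comparisons, from -0.44 (unstimulated OSW-1) to -0.22 (LPS). Of the 7 HOPS and CORVET genes tested, 25HC with LPS left 1 higher and 2 lower. Itraconazole with LPS left 1 higher and 2 lower, and OSW-1 with LPS 1 higher and 5 lower.

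The 3 genes of the NRZ tether, which works with Stx18 at the ER, were all higher with 25HC, itraconazole and OSW-1 in LPS-treated cells (medians 0.39, 0.56 and 0.73), led under OSW-1 by Zw10 (0.80 ± 0.08), Nbas (0.73 ± 0.12) and Rint1 (0.65 ± 0.09). For this tether and those that follow, 20.8, 26.5 and 34.3% of all genes were higher in these 3 comparisons. The shares lower were 21, 27.9 and 37.1%. Of the 8 genes of COG, the tether of intra-Golgi transport, 25HC with LPS left 4 higher and 1 lower. Itraconazole with LPS left 4 higher and 1 lower, and OSW-1 with LPS 6 higher and 2 lower. Under OSW-1 these were, among others, Cog3 at 1.04 ± 0.09, Cog8 at 0.96 ± 0.08 and Cog7 at -0.77 ± 0.08. GARP and EARP, tethers of the trans-Golgi network and recycling endosomes, had 2 higher and 0 lower of 4 with 25HC and LPS. Itraconazole and LPS left 2 higher and 0 lower, and OSW-1 and LPS 3 higher and 0 lower, with Vps51 at 0.70 ± 0.09 and Vps54 at 0.56 ± 0.10. Exoc4 of the exocyst, the tether of the cell surface, was lower with LPS and with every compound, reaching -1.02 ± 0.08 with OSW-1 and LPS. Of the 9 exocyst genes OSW-1 with LPS left 3 higher and 4 lower. Exoc6b (0.37 ± 0.13, 0.36 ± 0.13 and 1.10 ± 0.13) and Exoc8 (0.50 ± 0.13, 0.80 ± 0.12 and 0.92 ± 0.13) were higher with 25HC, itraconazole and OSW-1 in LPS-treated cells. The 4 disassembly genes all rose with LPS in wild-type cells, where 60.9% of all genes were called. LPS in Ch25h-/- cells left 1 higher and 0 lower, where 57.2% were called. For 0 of these 4 genes was the LPS response called different between the genotypes. Nsf, the ATPase among them, then fell under 25HC, itraconazole and OSW-1 with LPS (-0.33 ± 0.07, -0.45 ± 0.07 and -0.37 ± 0.07), while its adaptor Napa rose under OSW-1 with LPS (0.68 ± 0.08).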

How the data were processed

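RNA of bone marrow derived macrophages was sequenced from polyA libraries made with an Illumina TruSeq stranded kit, per the labels' protocols, in 30 samples. The authors deposited 1 table of raw counts per gene; per the submitters' processing notes the tools were FastQC 0.11.9, GSNAP, featureCounts of Subread 1.5.2 and edgeR 3.26.8 with GRCm38 (mm10). The strand setting and the annotation release are not given in the sources used here. In 20 deposited libraries all counts are even, for which no source gives a reason. Totals of 23656860 to 43922154 counts limit precision for low genes such as Vamp5 and Stx1a.

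Counts were fitted in R 4.3.3 with edgeR 4.0.16 (TMM scaling, filterByExpr with a minimum count of 10, quasi-likelihood test), using 1 model over the 10 groups and Benjamini-Hochberg adjustment over 13173 genes in each of 20 comparisons; the fit was tested on simulated data. Standard errors were derived from the log2 fold change and its F statistic. Members follow from gene names, and members and gene lists were chosen with earlier results of these data known. Members given per library were the 4 with the largest called fold change in LPS or a compound comparison and up to 4 called response differences of smallest p per compound; of each partner list, up to 3 called genes of smallest p in a comparison. Bnip1, Stx2 and Stx17 were added after their values were seen. Exon lengths for CPM per kilobase come from GENCODE vM21 and promoters from RefSeq. Alternatives were median-ratio size factors, no filter, DESeq2 1.42.0, halved even counts, only even-count libraries (chosen after seeing the data), leave-one-out, and the mouse as a replicate block. The labels' mouse numbers pair the samples. With each group centred on its mean, 24 of 24 wild-type and 6 of 6 Ch25h-/- libraries lay closer to their own number. Centring ties same-number to other-number correlations, and each pair counts for both its libraries, so these counts are no independent check of the pairing. Of the same-mouse correlations 36 of 84 and 1 of 3 exceeded 0.1 (medians 0.0865 and 0.0906).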

Additional observations from a re-analysis of the deposited data

Results flagged for a closer look

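The effect of LPS differed with and without a compound for 38 pairs of a member and a compound, each by the edgeR interaction test with n = 3 per group; values are the log2 LPS change with the compound minus that without it. For 25HC it was above 0 for Stx5a (0.61) and Vamp3 (0.27) and below 0 for Sec22c (-0.53), Gosr2 (-0.47), Stx7 (-0.46), Bet1 (-0.42) and Vti1a (-0.39), with adjusted p from 0.00419 to 0.0337. For itraconazole those above 0 were Stx5a (1.14), Bet1l (1.1), Sec22b (0.73), Snap23 (0.46), Vamp3 (0.32) and Gosr1 (0.26). Those below 0 were Vamp5 (-1.12), Stx7 (-0.56), Vamp1 (-0.55), Sec22c (-0.53) and Stx2 (-0.38), and adjusted p ran from 3.25e-06 to 0.0489. For OSW-1 the members above 0 were Bet1l (0.99), Sec22b (0.86), Stx5a (0.86), Bnip1 (0.79), Stx6 (0.72), Vamp2 (0.57), Vamp3 (0.45) and Gosr1 (0.34). Those below 0 were Vamp5 (-2.45), Vamp4 (-1.16), Stx1a (-1.03), Vamp1 (-0.83), Vti1a (-0.76), Stx2 (-0.75), Snap47 (-0.64), Stx7 (-0.59), Sec22c (-0.58), Stx16 (-0.58), Stx4a (-0.46) and Vti1b (-0.33), with adjusted p from 9.73e-07 to 0.0471. Fits that left out 1 of the 12 libraries lost some of these calls: Vamp3 (9 fits), Bet1 (8) and Sec22c (2) for 25HC. For itraconazole they lost Gosr1 (10), Stx2 (5), Vamp1 (4) and Vamp5 (4), and they lost Stx1a (6) and Vamp2 (3) for OSW-1. Gosr1 for itraconazole was also lost with halved counts, median-ratio size factors or no low-count filter and among even-count libraries. The 3 compounds share the untreated libraries, and all OSW-1 libraries with LPS held odd counts, unlike the other 3 groups of that contrast, so for OSW-1 that property and the treatment cannot be told apart.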

How the results depend on the processing

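Of 244 called pairs of a member and a comparison, 173 were called under every alternative run and none reversed; calls lost numbered 247 over the leave-one-out fits, 35 without the low-count filter, 10 with median-ratio size factors, 14 among even-count libraries, 5 with DESeq2, 3 with the mouse as a replicate block and 2 with halved counts. The cause was not tested. The count of 25HC against itraconazole with LPS, 5, was 1 without the filter (Bet1l) and 3 among even-count libraries, where fewer samples enter; DESeq2 gave 1 in place of 0 for 25HC against itraconazole and 1 for 25HC against OSW-1, unstimulated. Leaving out single libraries moved the count for unstimulated 25HC between 6 and 14 (main 13), the 25HC response difference between 4 and 7, the Ch25h-/- response difference between 0 and 1, 25HC against OSW-1 unstimulated between 0 and 1, OSW-1 against itraconazole unstimulated between 1 and 4, Ch25h-/- against wild-type with LPS between 0 and 11, and 25HC against itraconazole with LPS between 0 and 5. For the fits that left out a library, shares of all genes were not recorded. The replicate block turned counts of 11 into 15 (itraconazole response difference), 13 into 14 (unstimulated 25HC) and 26 into 27 (itraconazole with LPS), and beyond the calls named beside their results it changed none. It could not be fitted for Ch25h-/- against wild-type, whose mice differ. OSW-1 with LPS and Ch25h-/- have no even-count library, so that alternative gave no value there. Vamp5 with 6 to 11 counts per library under OSW-1 and LPS, and Stx1a, are limited by depth.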

Other observations

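The listed regulators of SNARE assembly and calcium sensing were mixed. Of 11 tested, OSW-1 with LPS left 4 higher and 6 lower than LPS alone, beside 34.3% and 37.1% of all genes. The genes named here were singled out after their values were seen. Stxbp6 had a mean of 0.102 CPM with LPS and 7.43 CPM with OSW-1 and LPS, and Syt7 (3.92 ± 0.44), Unc13b (1.24 ± 0.30) and Txlna (0.80 ± 0.10) were also higher. Unc13d, the priming factor of lytic granules, rose with LPS by 0.95 ± 0.09, was at -0.45 ± 0.09 under OSW-1 with LPS and had a response difference of -0.41 ± 0.13 for OSW-1 (adjusted p = 0.00906). Syt11, a synaptotagmin that restrains cytokine secretion in macrophages, rose with 25HC (0.56 ± 0.13), itraconazole (0.49 ± 0.13) and OSW-1 (0.67 ± 0.13) in unstimulated cells. In LPS-treated cells it fell with each, to -0.37 ± 0.13, -0.42 ± 0.13 and -1.06 ± 0.14. Stxbp4, a binding partner of Stx4, was at 0.02 ± 0.18 with LPS alone, where it was not called, and at -0.70 ± 0.19, -1.03 ± 0.19 and -2.39 ± 0.21 with 25HC, itraconazole and OSW-1 and LPS, from a mean of 6.34 down to 1.21 CPM under OSW-1.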
